A study of Mus musculus with 2 samples.

Results

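Alveolar fibroblasts are the matrix-making cells of the gas-exchange walls of the lung. They were taken here as the cells that carried fibroblast genes and more genes of alveolar than of adventitial fibroblasts, and they numbered 660 of 19951 kept cells. Of these, 182 of 9109 kept cells came from the Plaur KO library (1.998%, 95% interval 1.72 to 2.31) and 478 of 10842 came from the WT library (4.41%, 4.03 to 4.81). A member had 500 or more genes and no more than 15% of mitochondrial UMIs (unique molecular identifiers, each a counted transcript). It showed at least 3 of Col1a1, Col1a2, Col3a1, Dcn, Mgp and Pdgfra, and at least 3 of Npnt, Ces1d, Itga8, Tcf21, Limch1 and Scn7a. It also showed fewer of Pi16, Col14a1, Dpt, Clec3b, Mfap5 and Serpinf1 than of the alveolar set, at most 1 of 3 mesothelial genes and at most 1 of 5 endothelial, AT2 or leukocyte genes.

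The cells came from 2 droplet 3' single-cell RNA libraries of lung digests sorted to be CD45.2-negative, which removes most blood-derived cells. One library was from Plaur KO mice (Plaur-/-, labelled strain C57B6/J), labelled as knockouts of the gene of the urokinase receptor uPAR, and the other was from WT C57B6/J mice. Both groups of 8 mice had been sensitised to ovalbumin with lipopolysaccharide on days 0 and 7 and had received ovalbumin aerosol on day 14. The labels name the cells as a lysate of total lung cells and do not say how many mice entered each library, which part of Plaur was deleted, or how long after the challenge the lungs were taken. The study addressed the part of uPAR in eosinophil migration and airway reactivity. With 1 library per genotype no difference had a replicate check, no test was possible, and all intervals are 95% intervals that cover counting error only.

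Alveolar fibroblasts lie beside the surfactant-making AT2 cells and the capillaries. They deposit elastin and collagens, store retinoids and lipid, and send growth factors such as Fgf7, Fgf10 and Angpt1 to their neighbours. During inflammation lung fibroblasts can switch on chemokines, acute-phase proteins and adhesion molecules under the control of NF-kB and interferon signals. The urokinase receptor anchors the protease urokinase at the cell surface, where it activates plasminogen.

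The members held 484148 UMIs in the Plaur KO library and 1599358 UMIs in the WT library. A member cell had a median of 2273 UMIs (775 to 9572) in the Plaur KO library and of 2725.5 UMIs (748 to 24544) in the WT library, and the median mitochondrial share was 3.07% and 3.41%. The libraries had 30 barcodes in common, none of them among the members. Members were 40.6% (36.0 to 45.3) of all 448 fibroblasts by the marker rule in the Plaur KO library and 38.0% (35.3 to 40.7) of 1258 in the WT library, so the intervals overlapped for the share among fibroblasts and not for the share among all kept cells. The sort and the digestion can set both shares. At the edge of the rule, 45 members in the Plaur KO library and 139 in the WT library had just 1 alveolar gene more than adventitial genes, and 39 and 83 cells with equal numbers stayed out. A further 14 cells in the Plaur KO library and 24 in the WT library stayed out with 2 alveolar genes.

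Plaur itself had 21 UMIs in the Plaur KO members (43.4 CPM, the UMIs of a gene scaled to a common total, per group, 26.9 to 66.3) and 119 UMIs in the WT members (74.4 CPM, 61.6 to 89.0). The gene was counted in both libraries, with a log2 ratio of Plaur KO over WT of -0.78 (-1.52 to -0.10). At a fixed 1000 UMIs per cell, 4.52% (1.97 to 8.71) of Plaur KO members and 4.70% (2.97 to 7.03) of WT members showed it, against 1.59% and 0.24% of AT2 cells. Plaur (ENSMUSG00000046223) lies on chromosome 7 from 24462484 to 24475968 on the plus strand (GRCm38). The assay reads 3' ends, and such a read cannot check the knockout where the deletion lies elsewhere in the gene, so each direction given here rests on the library's label.

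The label was checked on genes that the rule did not use. Inmt, a methyltransferase of alveolar fibroblasts, had 2024 CPM in Plaur KO members and 1805 CPM in WT members, against 725 and 598 CPM in adventitial fibroblasts (185 and 574 cells chosen by the mirrored rule). At 1000 UMIs per cell it was seen in 74.6% (67.5 to 80.8) of Plaur KO members and 77.6% (73.5 to 81.3) of WT members, with 0.04% and 0.11% of AT2 cells as the background of free RNA (AT2 medians 6220 and 6455 UMIs). Slc7a10, a small amino acid transporter, had 80.6 CPM in Plaur KO members and 70.0 CPM in WT members, against 3.96 and 1.98 CPM in adventitial fibroblasts. Fgfr4, a fibroblast growth factor receptor, stood at 72.3 CPM in Plaur KO and 48.1 CPM in WT against 2.64 CPM in Plaur KO and 0.79 CPM in WT adventitial cells. The higher level in alveolar than in adventitial fibroblasts held in both libraries for Mettl7a1, Bmp3, Vegfd and Wnt2 as well, whereas Gdf10 had 22.7 CPM in Plaur KO members and 26.3 CPM in WT members, below the 34.3 CPM in Plaur KO and 39.2 CPM in WT of adventitial fibroblasts.

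**Figure D1:**
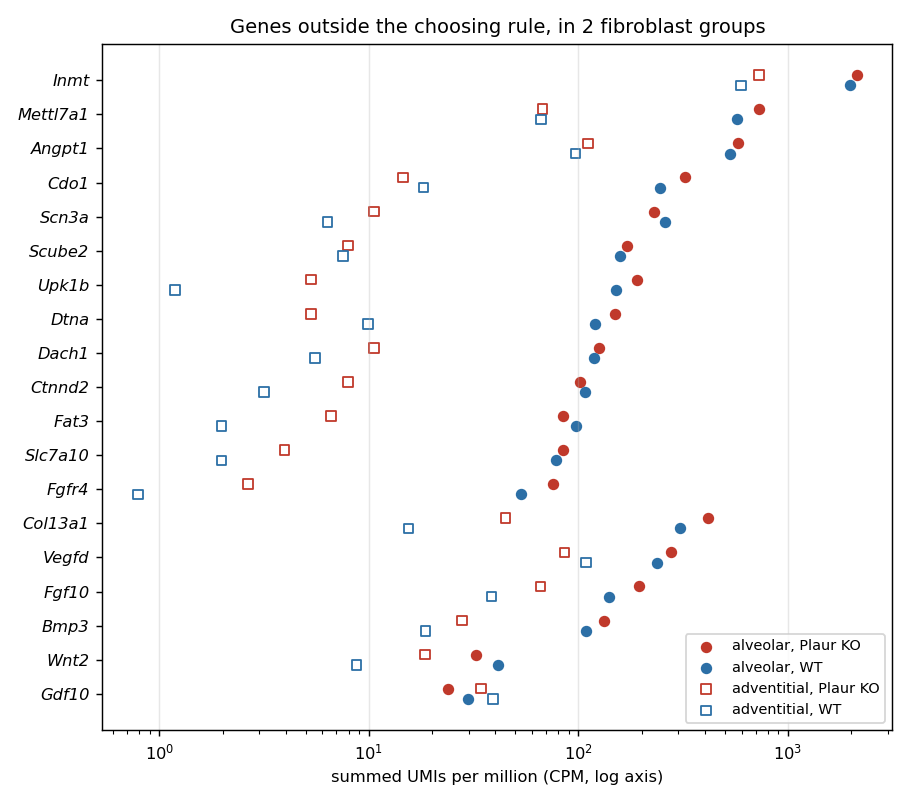
Summed level (CPM, log axis) of 19 genes outside the choosing rule in alveolar fibroblasts (filled circles, without the epithelial-carrying and contractile cells described in the text) and adventitial fibroblasts (open squares), Plaur KO in red and WT in blue. Alveolar levels lie to the right of adventitial ones for every gene shown but Gdf10. Upk1b, Scn3a, Scube2, Dtna, Cdo1, Ctnnd2, Fat3 and Dach1 come from the genes ranked furthest above adventitial fibroblasts in these data. Their side was fixed by that choice, and Slc7a10 ranked there too.

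Among 9027 genes with at least 50 UMIs, 581 (6.44%) were at least 2-fold higher and 396 (4.39%) at least 2-fold lower in alveolar than in adventitial fibroblasts in both libraries. This contrast follows from how the cells were chosen and is a description. The genes furthest above included Upk1b, a uroplakin (185.9 CPM in Plaur KO and 139.4 CPM in WT members, against 5.28 and 1.19 CPM in adventitial cells), the sodium channel gene Scn3a, Scube2, which helps to release Hedgehog ligands, Cdo1, the cysteine dioxygenase, the cadherin Fat3 and the transcription factor Dach1. Fat3 had 80.6 CPM in Plaur KO and 88.8 CPM in WT against 6.60 CPM in Plaur KO and 1.98 CPM in WT adventitial cells. Myh11 and Actc1, muscle myosin and cardiac actin, also ranked there, but all of their UMIs lay in the few contractile cells described next.

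A small set of members did not look like alveolar fibroblasts. Cells with at least 3 of 6 contractile genes (Acta2, Tagln, Myh11, Actg2, Cnn1, Lmod1) numbered 5 of 182 in the Plaur KO library (2.75%, 0.90 to 6.29) and 21 of 478 in the WT library (4.39%, 2.74 to 6.64), a cut set after the values were seen. A further 7 and 12 members had 2 of these genes. Acta2, smooth muscle actin, reached 14180 CPM in those cells of the Plaur KO library and 21760 CPM in those of the WT library, against 117 and 96.1 CPM in the rest of the members. Myh11 had 3783 and 4385 CPM in them and no UMI in any other member, and Inmt and Col13a1 had no UMI in them. Of the rule's alveolar genes they carried Itga8, at 1324 CPM in the Plaur KO library and 1687 CPM in the WT library, with Npnt and Limch1. The label of alveolar fibroblasts does not hold for these cells by Inmt and Col13a1.

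Epithelial RNA was the other foreign signal. More than 1% of UMIs came from AT2 and airway genes in 1 member of the Plaur KO library and in 13 members of the WT library, with 2.58% and 50.8% at most. Summed over 8 airway secretory genes, members had 196 CPM in the Plaur KO library and 16780 CPM in the WT library, and 197 and 1371 CPM without those cells. Bpifb1, Bpifa1 and Muc5b were at 0 in Plaur KO members. The 8 ciliated genes summed to 132 CPM in Plaur KO members and 507 CPM in WT members, the 14 AT2 genes to 1516 CPM in Plaur KO and 2595 CPM in WT (1409 CPM in Plaur KO and 942 CPM in WT without the epithelial-carrying cells, the other direction), and the 12 endothelial genes to 41.3 CPM in Plaur KO and 116 CPM in WT. Scgb1a1, the club cell secretoglobin, was seen at 1000 UMIs per cell in 13.0% of Plaur KO members and 72.9% of WT members, and in 18.7% and 60.4% of AT2 cells, which do not make it. Of 16 leukocyte genes 12 were at 0 in Plaur KO members and 5 in WT members. Scrublet, a doublet caller, marked 1 and 15 members, which were kept. The core cells, without the epithelial-carrying and contractile cells, numbered 176 in the Plaur KO library and 444 in the WT library. This cut did not use ciliated genes, and ciliated RNA stayed. Without the epithelial-carrying cells the 8 ciliated genes summed to 133 CPM in Plaur KO members and 501 CPM in WT members. In core cells all 8 were past 2-fold lower in Plaur KO (list median -3.40), against 8.70% of all genes.

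Of 5995 genes with at least 50 UMIs, 37 (0.617%) were at least 2-fold higher and 257 (4.29%) at least 2-fold lower in Plaur KO members than in WT members. Without the cells that Scrublet marked, 163 were lower. In core cells the counts were 33 (0.590%) and 211 (3.77%) of 5590. The genes ranked highest in the Plaur KO library were the acute-phase gene Saa1, Cmss1, Mbd1, the endoplasmic reticulum genes Manf, Creld2 and Hspa5, Cdk8, Abca8a, Pid1, Errfi1, Angptl4 and Camk1d. The 12 ranked lowest were mostly airway and ciliated genes. The airway and ciliated sums given above differed in the same direction, and their part in the 257 lower genes was not tested. Gadd45g, a stress-induced gene, was also among the 12, at 136 CPM in Plaur KO members and 418 CPM in WT members (log2 ratio -1.62, -2.005 to -1.251, and -1.51 in core cells). Cmss1, a nucleolar protein gene, had 3561 CPM in Plaur KO members and 1359 CPM in WT members (1.39, 1.30 to 1.48), and 1.27 was its log2 ratio in adventitial fibroblasts. Its locus on the minus strand overlaps Filip1l on the plus strand. The counting was not stated to separate strands, so Cmss1 is uncertain. The loci of Adamts4, B2m, Bmp4, Ccl2, Col4a1, Cxcl10, Dusp1, Fgf7, Igtp, Junb, Mfap4, Pdia6, Psmb9, Slc7a10, Tagln and Timp1 also overlap another protein-coding gene, and their values have the same limit. Igtp shares its strand with the overlapping Irgm2, and the others lie on the strand opposite to their neighbour.

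Most genes of the unfolded protein response were higher in Plaur KO members. This response raises chaperones and folding enzymes of the endoplasmic reticulum, where collagens and other secreted proteins fold, and many of its target promoters carry the ER stress response element (CCAAT, then 9 bases of any kind, then CCACG), read by NF-Y and ATF6. The element was looked for on both strands in windows from 250 bases before to 50 bases after gene starts (RefSeq, GRCm38.p6). It was present in 8 of 23 genes of the list (34.8%) and in 37 of 27025 genes in all (0.137%). The promoters of 4 of these 8 genes are shown to place it, with the fixed letters of each match in capitals (CGTGG and ATTGG where the element lies on the other strand).
Hspa5 (chr2:34771840-34772139, plus strand): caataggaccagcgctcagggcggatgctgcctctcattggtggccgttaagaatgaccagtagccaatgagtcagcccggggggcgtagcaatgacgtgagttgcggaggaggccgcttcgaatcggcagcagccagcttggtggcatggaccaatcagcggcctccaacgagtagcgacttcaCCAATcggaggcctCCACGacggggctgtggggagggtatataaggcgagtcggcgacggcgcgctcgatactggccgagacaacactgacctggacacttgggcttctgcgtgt
Creld2 (chr15:88819396-88819695, plus strand): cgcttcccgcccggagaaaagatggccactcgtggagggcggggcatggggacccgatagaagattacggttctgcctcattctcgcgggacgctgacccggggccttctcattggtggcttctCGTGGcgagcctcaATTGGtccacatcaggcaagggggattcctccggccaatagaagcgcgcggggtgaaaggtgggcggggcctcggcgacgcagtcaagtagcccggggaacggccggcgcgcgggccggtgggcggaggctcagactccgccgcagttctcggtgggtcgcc
Dnajc3 (chr14:118937682-118937981, plus strand): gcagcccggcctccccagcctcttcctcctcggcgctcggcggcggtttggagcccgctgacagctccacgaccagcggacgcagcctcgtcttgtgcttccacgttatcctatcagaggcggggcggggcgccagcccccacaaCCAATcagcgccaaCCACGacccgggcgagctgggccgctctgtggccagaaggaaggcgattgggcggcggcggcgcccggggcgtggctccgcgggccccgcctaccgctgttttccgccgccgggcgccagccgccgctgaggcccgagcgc
Pdia6 (chr12:17266339-17266638, plus strand): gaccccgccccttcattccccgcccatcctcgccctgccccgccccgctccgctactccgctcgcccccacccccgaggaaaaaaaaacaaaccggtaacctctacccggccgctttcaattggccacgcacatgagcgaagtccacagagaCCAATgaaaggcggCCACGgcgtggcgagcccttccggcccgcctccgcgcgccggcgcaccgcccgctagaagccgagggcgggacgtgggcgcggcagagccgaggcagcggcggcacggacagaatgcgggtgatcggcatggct
The matches begin 65 bases before the start in Hspa5, 126 in Creld2, 105 in Dnajc3 and 98 in Pdia6. A match is a description of letters and not a measured site. Herpud1, Sdf2l1, Pdia4 and Dnajb11 were searched and had no match, and Manf and Hyou1 were not among the 23 genes searched. The list was made of genes of this response, so its share of matches follows in part from that choice. Whether a match goes with a higher ratio was not tested.

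Hspa5, which encodes the main chaperone BiP, had 2448 CPM in Plaur KO members (2310 to 2591; 1185 UMIs) and 1375 CPM in WT members (1318 to 1434; 2199 UMIs). Its log2 ratio was 0.83 (0.73 to 0.93), and adventitial fibroblasts had the same 0.83 (0.75 to 0.91). Manf, a secreted protein of the stressed endoplasmic reticulum, had 768 CPM in Plaur KO members and 386 CPM in WT members (0.99, 0.80 to 1.18). Manf shares its locus with Rbm15b and Dcaf1, so some of its reads are uncertain. Creld2 had 130 CPM in Plaur KO members and 55.6 CPM in WT members (1.23, 0.74 to 1.71). Herpud1, which works in disposal of misfolded proteins, had 182 CPM in Plaur KO and 93.2 CPM in WT (0.96, 0.57 to 1.35).

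Of the 21 members of this list with at least 20 UMIs, 19 lay above the median of all genes. The list median was 0.56 against -0.05 over all 9121 genes at that depth, and 0.53 against -0.07 in core cells, where 1.85% of all genes were past 2-fold higher and 8.70% past 2-fold lower. Among all members, past 2-fold there was 1 higher member, Creld2, and none lower, against 2.14% higher and 8.42% lower over all genes, and a count of 1 is too small to read against that background. The co-chaperones and folding enzymes Sdf2l1 (0.92), Hyou1 (0.74), Pdia4 (0.74), Dnajb11 (0.64), Pdia6 (0.63), Dnajc3 (0.58), Hsp90b1 (0.49) and Calr (0.47) had positive log2 ratios. The regulators behaved otherwise, with 0.06 for the transcription factor Xbp1 and -0.53 (-1.14 to 0.03) for Atf4. In single cells thinned to 1000 UMIs, Manf was seen in 52.5% (44.9 to 60.1) of Plaur KO members and 32.7% (28.5 to 37.2) of WT members, and Hspa5 in 82.5% and 72.0%. AT2 cells, which use these genes too, showed Manf in 15.8% and 12.7%.

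**Figure D2:**
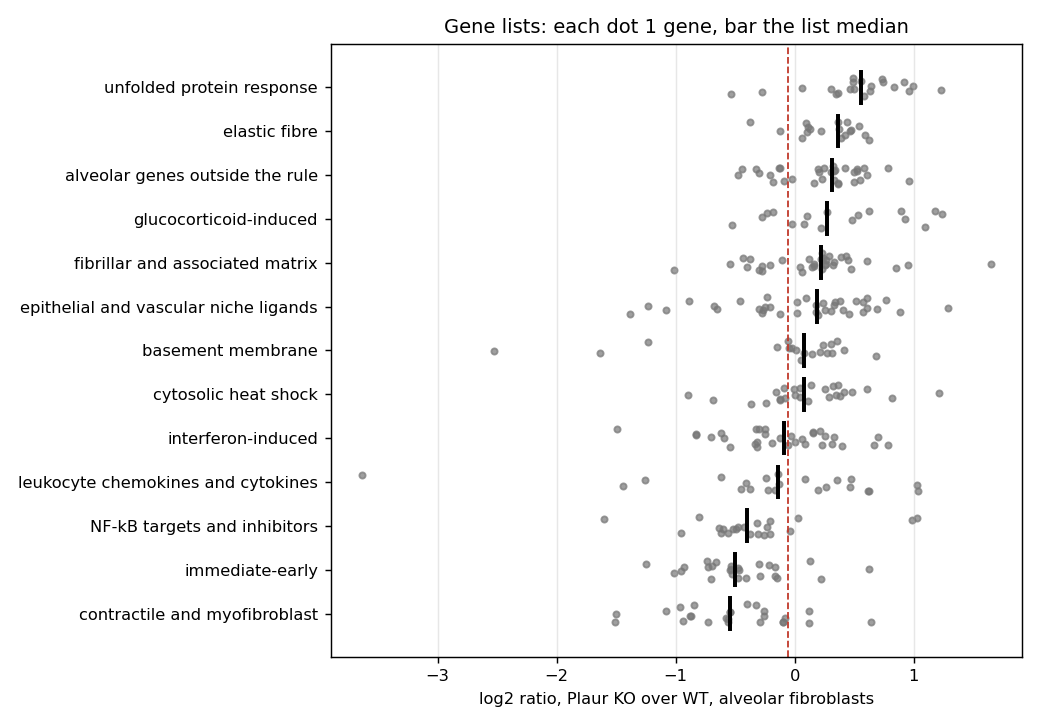
Log2 ratio of Plaur KO over WT in alveolar fibroblasts (horizontal axis) for the genes of 13 lists with at least 20 UMIs; each dot is 1 gene, the black bar is the list median and the dashed line is the median of all genes (-0.05). The unfolded protein response lies furthest right of the lists shown (median 0.56) and the contractile, immediate-early and NF-kB lists lie left of the line.

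Cytosolic heat shock genes had a list median of 0.08, with 17 of 26 above the median of all genes. Hspa8, the constitutive cytosolic chaperone, had 993.5 CPM in Plaur KO members and 651.5 CPM in WT members (0.61). Bag3, a co-chaperone, went the other way, with 43.4 CPM in Plaur KO and 80.7 CPM in WT (-0.89, -1.64 to -0.22).

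Elastic fibre and fibrillar matrix genes lay mostly above the median of all genes in the Plaur KO library. Eln, which encodes elastin, the recoil protein of the alveolar wall, had 2140 CPM in Plaur KO members (2012 to 2274) and 1417 CPM in WT members (1359 to 1476). The log2 ratio was 0.59 (0.49 to 0.70), and 0.46 in adventitial fibroblasts. Of 18 elastic fibre genes 16 lay above the median of all genes, with a list median of 0.37, and 0.29 in core cells. Past 2-fold there were 0 members, against 2.14% higher and 8.42% lower over all genes. Mfap4, of the microfibrils, had 2685 CPM in Plaur KO and 2091 CPM in WT (0.36), and Lox, the cross-linking enzyme, 326 CPM in Plaur KO and 249 CPM in WT (0.39), while Fbln5, an elastin-binding protein, had 84.7 CPM in Plaur KO and 110.0 CPM in WT (-0.38, -0.91 to 0.12).

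Of 34 fibrillar and associated matrix genes 24 lay above the median of all genes, with a list median of 0.22 (0.17 in core cells). Sparc, a collagen-binding glycoprotein, had 4230 CPM in Plaur KO members and 3365 CPM in WT members (0.33). Fn1, fibronectin, had 1456 CPM in Plaur KO and 1067 CPM in WT (0.45, 0.32 to 0.58), and -0.35 (-0.47 to -0.24) in adventitial fibroblasts. The collagen-maturing genes Serpinh1 (0.61), P4ha1 (0.95) and P4ha2 (1.65, 0.66 to 2.63) had higher levels in Plaur KO members, and P4ha2 was the sole member of the list past 2-fold higher, against 2.14% of all genes. P4ha2 rested on 19 and 20 UMIs. Col8a1, with 0 UMIs in Plaur KO and 20 UMIs in WT members, was the sole member past 2-fold lower, against 8.42% of all genes. That call rests on the 3 UMIs used as an upper limit for Plaur KO. With means of per-cell CPM Col8a1 had -0.093, and in core cells 0 members of the list were past 2-fold lower, against 8.70% of all genes. Col13a1, a membrane collagen of alveolar fibroblasts, had 397 CPM in Plaur KO members and 276 CPM in WT members (0.52).

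In the basement membrane list 14 of 19 genes lay above the median of all genes (list median 0.08), while Fras1, Lama5 and Tinagl1 were past 2-fold lower (2 of the 3 in core cells, where Tinagl1 had -0.56) and 0 genes past 2-fold higher, against 8.42% and 2.14% of all genes. Lamb1, a laminin chain, had 438 CPM in Plaur KO members and 273 CPM in WT members (0.68), and Col4a1 had 789 CPM in Plaur KO and 638 CPM in WT (0.31). Fras1 had 2 UMIs in Plaur KO members and 38 UMIs in WT members (-2.52, -5.62 to -0.57). Timp1, the inhibitor of matrix metalloproteinases, had 2406 CPM in Plaur KO members and 1522 CPM in WT members (0.66, 0.56 to 0.76), close to the 0.62 of adventitial fibroblasts. The gelatinase Mmp2 (0.54) and the stromelysin Mmp3 (0.58) also had positive log2 ratios, and Adamts4, an aggrecan-cleaving protease, a negative one (-0.66, -1.09 to -0.25). Of 25 proteases and inhibitors 20 lay above the median of all genes.

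The plasminogen system, in which uPAR acts, had 15 of 21 members above the median of all genes and a list median of 0.13. Past 2-fold it had 0 members, against 2.14% higher and 8.42% lower over all genes. Plat, tissue plasminogen activator, had 161 CPM in Plaur KO members and 112.5 CPM in WT members (0.52, 0.12 to 0.91). Serpine2, protease nexin, had 394.5 CPM in Plaur KO and 338 CPM in WT (0.22). Tfpi2, a serine protease inhibitor of the matrix, had 97.1 CPM in Plaur KO and 58.1 CPM in WT (0.74, 0.20 to 1.26).

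Ligands for the epithelium and vessels gave a mixed picture. Fgf10, which acts on AT2 cells and their progenitors, had 192 CPM in Plaur KO members (155 to 235) and 126 CPM in WT members (109.5 to 145). Its log2 ratio was 0.60 (0.23 to 0.97). Fgf7, keratinocyte growth factor, had 140.5 CPM in Plaur KO members and 86.9 CPM in WT members (0.69, 0.25 to 1.12), and Bmp4 had 233 CPM in Plaur KO and 153 CPM in WT (0.61, 0.27 to 0.93). Angptl4, an inhibitor of lipoprotein lipase, had 618 CPM in Plaur KO and 334 CPM in WT (0.89), and 0.92 in adventitial fibroblasts. Angpt1, the Tie2 ligand, had 549 CPM in Plaur KO and 478 CPM in WT (0.20, -0.01 to 0.40). Sema3c, a semaphorin, had 20.7 CPM in Plaur KO members and 53.8 CPM in WT members (-1.38, -2.49 to -0.43). Of 37 such ligands 23 lay above the median of all genes, with a list median of 0.18 (0.11 in core cells), 1 member past 2-fold higher (Fst) and 3 past 2-fold lower (Sema3c, Areg and Rspo3). These counts lay near the 2.14% and 8.42% of all genes.

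Retinoid and lipid genes did not share a direction. Adh1, an alcohol dehydrogenase that oxidises retinol, had 159 CPM in Plaur KO members and 81.9 CPM in WT members (0.96, 0.53 to 1.37), and Lipa, the lysosomal lipase, had 163 CPM in Plaur KO and 88.2 CPM in WT (0.89). Lpl, lipoprotein lipase, had 119.8 CPM in Plaur KO and 150.1 CPM in WT (-0.32, -0.76 to 0.09), and Plin2, a lipid droplet coat gene, 80.5 CPM in Plaur KO and 85.7 CPM in WT (-0.09). Of 27 genes 16 lay above the median of all genes, and the list median was 0.01.

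Glucocorticoid-induced genes had a list median of 0.27, with 13 of 17 above the median of all genes and 3 past 2-fold higher, against 2.14% of all genes. In core cells 2 were, with Klf15 at 0.85. Zbtb16 had 122 CPM in Plaur KO members and 53.8 CPM in WT members (1.18, 0.68 to 1.68), and Tsc22d3, the glucocorticoid-induced leucine zipper, had 200.4 CPM in Plaur KO and 105.0 CPM in WT (0.93, 0.56 to 1.30). Pdk4 (1.24, -0.09 to 2.51) and Klf15 (1.10, -0.14 to 2.27) rested on 10 and 11 UMIs in Plaur KO members.

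Most immediate-early genes, which cells switch on within minutes of a stimulus, were lower in Plaur KO members. Egr1 had 308 CPM in Plaur KO members (260 to 361) and 730 CPM in WT members (688 to 773). The log2 ratio was -1.25 (-1.501 to -0.998), and -0.90 in adventitial fibroblasts. Junb had 564 CPM in Plaur KO and 920 CPM in WT (-0.71, -0.90 to -0.52), and Fos had 498 CPM in Plaur KO and 726 CPM in WT (-0.54). Dusp1, a phosphatase of the same list, had 533 CPM in Plaur KO members and 346 CPM in WT members (0.62, 0.40 to 0.84). Of 26 members 23 lay below the median of all genes, with a list median of -0.50 (-0.57 in core cells), 2 past 2-fold lower (1 in core cells) and 0 past 2-fold higher. The lower count lay near the 8.42% of all genes. At 1000 UMIs per cell Egr1 was seen in 24.3% (18.2 to 31.3) of Plaur KO members and 35.9% (31.6 to 40.4) of WT members, and in 18.3% and 19.4% of AT2 cells.

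**Figure D3:**
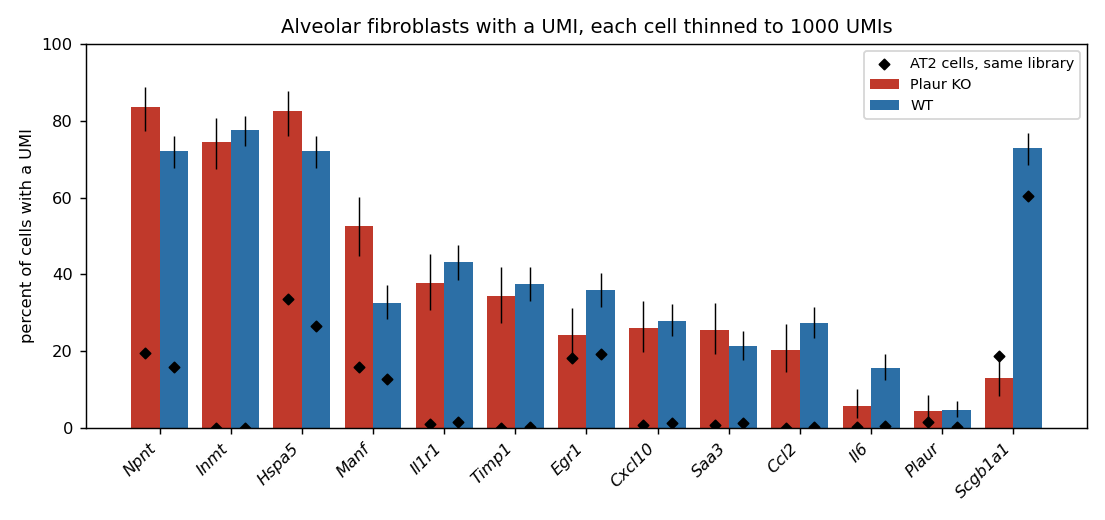
Percent of alveolar fibroblasts with a UMI of each gene after every cell was thinned to 1000 UMIs (177 Plaur KO cells in red, 468 WT cells in blue; error bars are exact 95% binomial intervals), with the share in AT2 cells of the same library as black diamonds. The share of Manf is higher in Plaur KO members and those of Il6 and Egr1 higher in WT members. Npnt is a gene of the choosing rule, so its share in members depends on how they were chosen. Its share in AT2 cells is 19.4% in the Plaur KO library and 15.9% in the WT library. The share of Scgb1a1 is 13.0% of Plaur KO and 72.9% of WT members, with 18.7% and 60.4% in AT2 cells.

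NF-kB targets and inhibitors were also lower as a list, with 18 of 22 below the median of all genes and a list median of -0.40. Cxcl2 was its highest member (1.03). Zc3h12a, an RNase that degrades cytokine mRNA, had 26.9 CPM in Plaur KO members and 81.3 CPM in WT members (-1.60, -2.54 to -0.77). Tnfaip2 had 192 CPM in Plaur KO and 334.5 CPM in WT (-0.80), Birc3, an inhibitor of apoptosis, 157 CPM in Plaur KO and 243 CPM in WT (-0.63), and the feedback inhibitor Nfkbia 450 CPM in Plaur KO and 540 CPM in WT (-0.26, -0.48 to -0.05). Of the receptors, Il1r1, which binds interleukin-1, had 845 CPM in Plaur KO members and 1266 CPM in WT members (-0.58, -0.74 to -0.43), and -0.80 was its log2 ratio in adventitial fibroblasts.

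The chemokines and acute-phase genes split. Il6 had 63 UMIs in Plaur KO members (130 CPM, 99.99 to 166.5) and 497 UMIs in WT members (311 CPM, 284 to 339). Its log2 ratio was -1.26 (-1.66 to -0.88), with -1.003 in adventitial fibroblasts. Saa3, an acute-phase serum amyloid, had 5447 CPM in Plaur KO members (5241 to 5659) and 3496 CPM in WT members (3405 to 3589), a log2 ratio of 0.64 (0.57 to 0.71). Ccl11, eotaxin-1, which draws eosinophils, had 913 CPM in Plaur KO members and 596 CPM in WT members (0.62, 0.45 to 0.78). Its log2 ratio was 0.36 in cells thinned to 1000 UMIs and 0.40 with means of per-cell CPM. In cells of 1000 or more genes and 10% or less mitochondrial UMIs it was 0.79. At 1000 UMIs per cell Ccl11 was seen in 13.6% of Plaur KO members and 15.2% of WT members. The 19 and 48 cells with the most Ccl11 held 94.3% of its UMIs in the Plaur KO library and 89.7% in the WT library. Cxcl10 had 5246 CPM in Plaur KO and 3790 CPM in WT (0.47, 0.40 to 0.54). The monocyte chemokine Ccl2 had 2185 CPM in Plaur KO and 2060 CPM in WT (0.09, -0.02 to 0.19), and Ccl7 had 723 CPM in Plaur KO and 796 CPM in WT (-0.14, -0.31 to 0.03).

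Of 22 leukocyte chemokines and cytokines, 10 lay above the median of all genes, 2 were past 2-fold higher and 3 past 2-fold lower (Il6, Ccl5 and Cxcl13), against 2.14% and 8.42% of all genes. Cxcl2, a neutrophil chemokine, had 114 CPM in Plaur KO members and 55.6 CPM in WT members (1.03, 0.52 to 1.53), and the IL-6 family cytokine Lif had 47.5 CPM in Plaur KO and 23.1 CPM in WT (1.04). A pair of hyaluronan genes was lower, with 47.5 CPM in Plaur KO members and 98.2 CPM in WT members for the synthase Has2 (-1.05, -1.75 to -0.41) and 159 CPM in Plaur KO and 296 CPM in WT for the hyaluronan-binding Tnfaip6 (-0.90). Saa1 rested on few cells, with 115 UMIs in 9 Plaur KO members, of which 1 cell gave 72, and 70 UMIs in 8 WT members.

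Chemokine transcripts were held by a minority of cells. The 19 and 48 cells with the most Ccl2 held 90.4% of Ccl2 UMIs in the Plaur KO library and 73.9% in the WT library. Ccl2 was seen at 1000 UMIs per cell in 20.3% (14.7 to 27.03) of Plaur KO members and 27.4% (23.4 to 31.6) of WT members, against 0.05% and 0.30% of AT2 cells. The matching shares were 25.4% and 21.4% for Saa3, and 5.65% (2.74 to 10.1) and 15.6% (12.4 to 19.2) for Il6. Without thinning, Il6 was seen in 12.6% of Plaur KO members and 28.5% of WT members.

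The core cells were sorted by how many of 8 inflammatory genes (Ccl2, Ccl7, Cxcl10, Timp1, Lcn2, Iigp1, Gbp2, Icam1) they showed at 1000 UMIs, a panel chosen after the values were seen. Cells with at least 4 numbered 52 of 171 in the Plaur KO library (30.4%, 23.6 to 37.9) and 152 of 436 in the WT library (34.9%, 30.4 to 39.5). Cells with at most 1 numbered 97 (56.7%, 48.9 to 64.3) and 194 (44.5%, 39.8 to 49.3). The range between held 22 cells (12.9%) and 90 cells (20.6%), and 6 and 33 cells showed 3 genes, just under the upper cut. The share at 0 genes was 38.01% in the Plaur KO library and 23.6% in the WT library. Cells at the high end had medians of 2741.5 UMIs in the Plaur KO library and 3124 UMIs in the WT library, and cells at the low end had 2113 and 2143 UMIs. These are ranges of a score and not cell types.

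**Figure D4:**
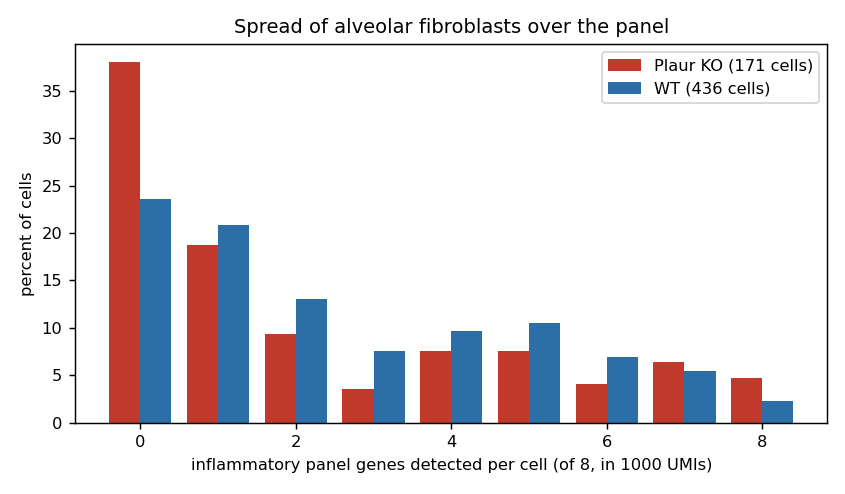
Percent of core alveolar fibroblasts (vertical axis) by the number of 8 inflammatory genes seen in 1000 UMIs per cell (horizontal axis), Plaur KO in red (171 cells) and WT in blue (436 cells). The 0 class holds 38.01% of Plaur KO and 23.6% of WT cells. The classes of 1 to 6 genes hold larger shares of WT cells, and those of 7 and 8 genes larger shares of Plaur KO cells.

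The high and low ends of the panel differed in genes outside it in both libraries. Saa3 had 15260 CPM in high cells and 186 CPM in low cells of the Plaur KO library, and 9654 and 94.8 CPM in the WT library. Il1r1 had 1360 and 354 CPM in the Plaur KO library and 2148 and 594 CPM in the WT library. Cxcl9 had 1937 CPM in high cells of the Plaur KO library and 1428 CPM in those of the WT library, and no UMI in low cells of either. The alveolar fibroblast genes Inmt and Angpt1 were lower in high cells, but not every alveolar gene was clearly so. The log2 ratio of high over low cells for Ces1d was 0.17 (-0.19 to 0.53) in the Plaur KO library and -0.24 (-0.47 to -0.01) in the WT library. For Tcf21 it was -0.43 (-1.01 to 0.13) and -0.64 (-0.95 to -0.34), and for Col13a1 -0.38 (-0.89 to 0.11) and -0.28 (-0.62 to 0.06). Inmt had 1186 CPM in high and 2881 CPM in low cells of the Plaur KO library, and 1229 and 2705 CPM in the WT library, and Angpt1 had 244 and 801 CPM, and 351 and 787 CPM. Plaur had 96.2 and 16.9 CPM in high and low cells of the Plaur KO library and 132 and 31.0 CPM in those of the WT library. These levels rest on 15 and 4 UMIs in the Plaur KO library and on 71 and 17 UMIs in the WT library.

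Several differences between the libraries had 1 direction at both ends of the panel. Hspa5 had a log2 ratio of 0.64 (0.48 to 0.81) in high cells and 0.85 (0.69 to 1.01) in low cells. Il6 had -1.08 (-1.60 to -0.60) and -1.84 (-3.22 to -0.71), Il1r1 had -0.66 and -0.75, and Egr1 had -0.75 and -1.38. In the cells between, Hspa5 had 0.999 and Egr1 -1.77, whereas Il6 had -0.56 (-1.38 to 0.18), Il1r1 0.05 (-0.28 to 0.38) and Ccl11 -1.10 (-2.005 to -0.31). Other genes took opposite signs. Eln had 1065 CPM in high Plaur KO cells and 1454 CPM in high WT cells (-0.45, -0.70 to -0.21), but 2822 and 1427 CPM in low cells (0.98, 0.83 to 1.13). Thbs1, the matricellular thrombospondin, had 4073 and 2404 CPM in high cells (0.76, 0.62 to 0.90) and 494 and 848 CPM in low cells (-0.78, -1.08 to -0.49). Ccl11 had 2597 and 1378 CPM in high cells (0.92, 0.74 to 1.09) and 92.8 and 108 CPM in low cells (-0.21, -0.99 to 0.52). The differences between the ends were not tested.

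**Figure D5:**
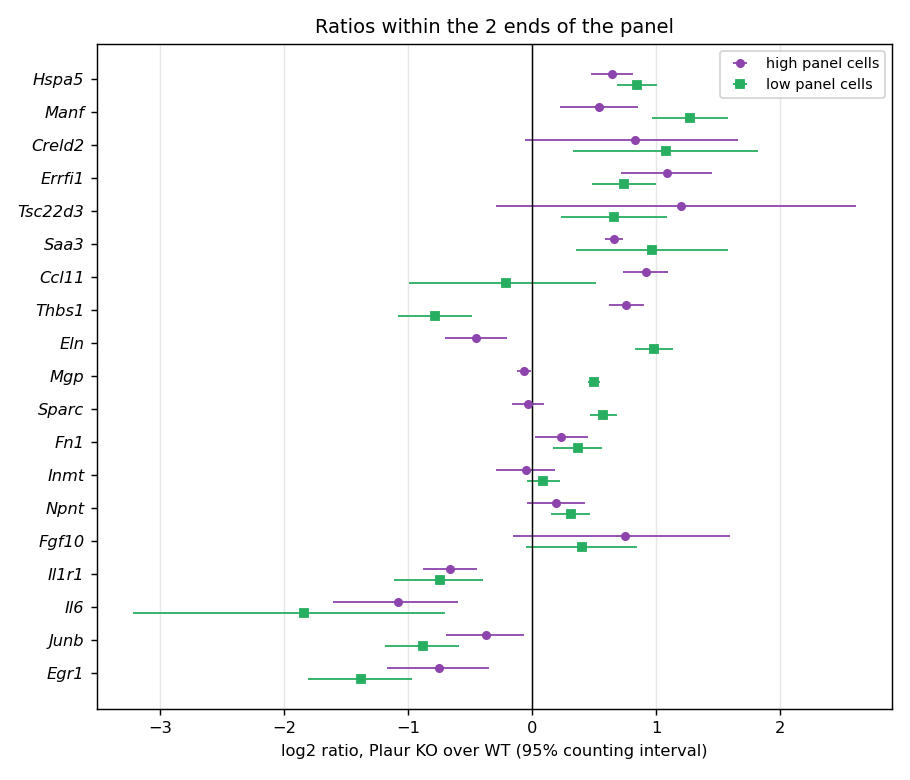
Log2 ratio of Plaur KO over WT with its 95% counting interval (horizontal axis) for 19 genes within core cells that showed at least 4 (high, purple circles) or at most 1 (low, green squares) of the 8 panel genes. Hspa5 and Manf lie right of 0 and Il6, Il1r1 and Egr1 left of 0 at both ends, while Eln and Thbs1 lie on opposite sides.

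Interferon-induced genes had a list median of -0.09, with 15 of 32 above the median of all genes. Iigp1, an interferon-induced GTPase, had 1376 CPM in Plaur KO members and 1713 CPM in WT members (-0.32), whereas Igtp had 188 CPM in Plaur KO and 118 CPM in WT (0.67, 0.29 to 1.04). Of 15 MHC class I genes, 11 lay below the median of all genes. Psmb9, an immunoproteasome subunit, had 22.7 CPM in Plaur KO members and 63.8 CPM in WT members (-1.49, -2.54 to -0.59), and B2m had 1692 CPM in Plaur KO and 1880 CPM in WT (-0.15). In the list of IL-4 and IL-13 responses 9 of 12 genes lay below the median of all genes (list median -0.38). Il4ra, the receptor chain of both cytokines, had 76.4 CPM in Plaur KO and 99.4 CPM in WT (-0.38, -0.94 to 0.14), and Socs3, a feedback inhibitor of cytokine receptors, had 161 CPM in Plaur KO and 276 CPM in WT (-0.78).

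Contractile genes were lower in Plaur KO members as summed, and for Acta2, Tagln and Ccn2 the direction turned without the contractile cells. Acta2 had 731 CPM in Plaur KO members and 1316 CPM in WT members (-0.85, -1.01 to -0.68), and 117 and 98.5 CPM in core cells (0.25, -0.23 to 0.71). Tagln, transgelin, had 479 CPM in Plaur KO and 932 CPM in WT (-0.96), and 130 and 101 CPM in core cells (0.36, -0.10 to 0.81). Ccn2, a connective tissue growth factor, had 293 CPM in Plaur KO and 381 CPM in WT (-0.38), and 226 and 186 CPM in core cells (0.28). Of 25 contractile genes 22 lay below the median of all genes, with a list median of -0.55, and in core cells 12 of 19 did, with a list median of -0.19. Igfbp5, an insulin-like growth factor binding protein, was lower with and without these cells, at 66.1 CPM in Plaur KO members and 188 CPM in WT members (-1.505, and -1.64 in core cells).

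The rule genes themselves are a description of the cells chosen. Npnt, nephronectin, the ligand of the integrin that Itga8 helps to form, had 1797 CPM in Plaur KO members and 1346 CPM in WT members (0.42). Ces1d, a lipase-like carboxylesterase, had 694 CPM in Plaur KO and 514 CPM in WT, Itga8 had 760 CPM in Plaur KO and 706.5 CPM in WT, and the transcription factor Tcf21 had 299.5 CPM in Plaur KO and 341 CPM in WT. Npnt lies on chromosome 3 from 132881745 to 132950291 and Itga8 on chromosome 2 from 12106632 to 12301922, both on the minus strand (GRCm38).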

How the data were processed

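The deposited matrices hold raw counts of UMIs per gene and barcode, which the authors made with Cell Ranger (versions 7.0.0 and 7.1.0, build mm10, per the submitters' processing notes) from 2 libraries of the 10x 3' assay. How barcodes were called, and whether intronic reads were counted, is not given in the sources used here. The members and gene lists were chosen with earlier results of these data known. UMIs of member cells were summed per library and divided by their total (CPM). Log2 ratios have exact conditional binomial 95% intervals, shares exact Clopper-Pearson ones and CPM exact Poisson ones. Where 1 library had no UMI of a gene, 3 UMIs were used as its upper limit. Genes were compared from 50 UMIs over both libraries and list members from 20. Mitochondrial, ribosomal and other filters on names apply to ranked genes only. Genes were named by a rule: the 4 highest and 4 lowest ratios and 4 highest levels in each list, the 12 highest and lowest overall and the 12 furthest above adventitial fibroblasts. From these the text gives a selection, and Bmp3, Calr, Ccl5, Ccl7, Col13a1, Col8a1, Cxcl13, Cxcl9, Dnajb11, Dnajc3, Fras1, Fst, Hyou1, Klf15, Lama5, Lcn2, Lox, Mettl7a1, Myl9, P4ha2, Pdia4, Pdk4, Plin2, Rspo3, Tinagl1 and Vegfd, which fell outside it, were picked after their values were seen. Doublets were marked with Scrublet (scanpy 1.11.5, expected share 8%) and kept in the main values. Cells were thinned to 1000 UMIs for shares, which left out 5 Plaur KO and 10 WT members. The interval procedure was run on simulated summed counts with the Poisson spread that the intervals assume. No single cells were simulated, so this could not check the intervals where few cells hold most UMIs of a gene. Alternatives covered cell filters, stricter marker numbers, doublets, edgeR 4.0.16 TMM scaling, totals without the 50 most abundant genes, thinning, means over cells and other minima. Leaving out contractile cells, alone or with epithelial-carrying ones, was chosen after seeing the data. Positions are from GENCODE M21 (GRCm38), which holds 32158 of 32285 gene identifiers.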

Additional observations from a re-analysis of the deposited data

Results flagged for a closer look

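For some named genes the log2 ratio of Plaur KO over WT had opposite signs in alveolar and in adventitial fibroblasts of the same libraries, and the differences between the groups were not tested. The interferon-induced GTPases Igtp (0.67 in alveolar, -0.66 in adventitial fibroblasts) (whose locus overlaps Irgm2, so its reads are uncertain) and Gbp2 (0.23 and -0.54) and the chemokine Cxcl10 (0.47 and -0.38) were higher in Plaur KO alveolar and lower in Plaur KO adventitial fibroblasts. Fn1, fibronectin (0.45 and -0.35), and the retinal-oxidising enzyme gene Aldh1a1 (0.21 and -0.41) had the same pattern. Ccn2 (-0.38 and 1.22) and the neutrophil chemokine Cxcl5 (-0.22 and 0.19) had the opposite one. Without the contractile and epithelial-carrying cells the alveolar value of Ccn2 was 0.28.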

How the results depend on the processing

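Of 2073 values of 180 named genes under the alternatives, 14 values of 8 genes changed sign where the main interval excluded 0. Another 107 left their counting interval. Sign changes from a main interval that held 0 were not counted among the 14. With means of per-cell CPM, for example, Ccl2 had -0.146 and Itga8 -0.09, against positive main ratios. Of the 8 genes, 6 were contractile genes or Ccn2. With at least 4 alveolar markers Acta2 had a log2 ratio of 1.32, Tagln 0.87, Actg2 3.45, Myh11 4.26, Myl9 0.64 and Ccn2 0.36, and the contractile list stood at 0.028 relative to all genes, against -0.49. Relative to all genes, in thinned cells the lipid and retinoid list stood at 0.43 and the interferon list at -0.28, and with a minimum of 1 UMI basement membrane stood at -0.03 and fibrillar matrix at 0.085, against 0.067, -0.034, 0.13 and 0.28. Without contractile cells Acta2 had 0.28, Tagln 0.40 and Ccn2 0.35, and without epithelial-carrying cells as well 0.25, 0.36 and 0.28. With cells thinned to 1000 UMIs Inmt had -0.028 and Lcn2 -0.11. Genes at least 2-fold higher and lower in Plaur KO numbered 13 and 72 of 2321 in thinned cells. They numbered 2 and 30 of 1833 with a minimum of 200 UMIs, and 3974 and 1289 of 16624 with a minimum of 1 UMI. At a minimum of 1 UMI, the 3 UMIs used for a library without a UMI can alone put a gene past 2-fold higher in Plaur KO. The 3974 genes and the list values at that minimum can hold such genes, in a number not counted here. Without Scrublet-marked cells 163 were lower. In thinned cells 384 genes were at least 2-fold higher than in adventitial fibroblasts in both libraries. With cells limited to 1000 or more genes and 10% or less mitochondrial UMIs, members of the Plaur KO library were 1.55% of kept cells and 35.5% of fibroblasts. With at least 4 alveolar markers members were 35.5% of Plaur KO fibroblasts and 32.0% of WT fibroblasts, and 3.71% of WT kept cells. At 2000 UMIs per cell the shares were 84.6% of WT members for Inmt, 34.4% of WT members for Ccl2, 33.9% of Plaur KO and 27.2% of WT members for Saa3, 11.9% and 26.9% for Il6, and 18.1% of WT members for Acta2. The depth of the Plaur KO members, 484148 UMIs, limits genes under about 50 UMIs. No paired analysis was possible because each genotype had 1 library, and leaving out a library would leave no comparison.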
